A study of Sus scrofa with 6 samples.

Results

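The genes described here are made mainly by the oocyte: the zona pellucida genes ZP2, ZP3 and ZP4 and the growth factor genes GDF9 and BMP15. They were measured in large follicles from the ovaries of sows of the Chinese Erhualian and Large White breeds. Members were taken as every probe set whose only gene symbol in the probe table of the porcine array was one of these 5 names, at any signal. The rule found 5 probe sets, 1 per gene, among 10069 probe sets with 1 symbol and 23935 probe sets other than controls. Each array carried follicle RNA of 1 sow, and there were 3 Chinese Erhualian sows (called Chinese Taihu in the paper) and 3 Large White sows. All 6 sows had farrowed in at least 2 parities and received 1000 IU PMSG, a hormone with FSH-like action, then 500 IU hCG 80 h later, which acts on the LH receptor. They were slaughtered between 30 and 38 h after hCG, and follicles more than 5 mm across were collected, with 5 µg of total RNA used per array. The breeds were kept on different farms, so that breed and farm cannot be told apart. A follicle sample is a mixture in which the oocyte is a single cell among granulosa, cumulus and theca cells, and in such bulk RNA fewer cells of a type and less RNA per cell cannot be told apart.

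The zona pellucida is the glycoprotein coat that the growing oocyte secretes around itself, and in the pig it is built from ZP2, ZP3 and ZP4. Sperm bind to this coat, and after fertilization it is altered so that further sperm are kept out. GDF9 and BMP15 are secreted TGF-beta family ligands through which the oocyte acts on the granulosa and cumulus cells next to it. BMP15 binds the type I receptor BMPR1B and GDF9 signals through TGFBR1, each together with the type II receptor BMPR2. In sheep, naturally occurring variants of GDF9, BMP15 and BMPR1B change the number of eggs ovulated.

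The array of Chinese Erhualian sow 1 stood apart from the rest. Its log2 signals correlated with those of the other arrays at r = 0.834 to 0.887, against 0.907 to 0.967 among the other 5 arrays. All 8 markers of oviduct and surface epithelium were highest on it. Their summed signal was 1512 to 44346 in Chinese Erhualian and 1385 to 8181 in Large White sows, with the Large White maximum in sow 3. The 14 granulosa cell genes summed to 4160 in Chinese Erhualian sow 1, 23155 and 29190 in the other Chinese Erhualian sows, and 23074 to 23743 in Large White sows. The 8 theca and stroma genes summed to 13685, 44231 and 14158 in Chinese Erhualian sows 1 to 3. In Large White sows 1 to 3 they summed to 36376, 22339 and 22079, so that sows other than Chinese Erhualian sow 1 also differed within a breed. The 8 genes did not move as 1: in Chinese Erhualian sow 1, 5 were lowest and 1 was highest. STAR, with 27.0 there and 12624 in Chinese Erhualian sow 2, was among the lowest. DES was the highest, at 853 by its brightest probe set. The sums are therefore no measure of theca content. Leukocyte markers were highest in Large White sow 2 (5 of 7 genes). The median signal of an array was 173 to 187, the 3′ to 5′ signal ratio of the EF1A control 0.984 to 1.08, and that of GAPDH 1.36 to 1.85 in Chinese Erhualian and 1.21 to 1.60 in Large White sows. The same ratio of the actin control was 1.96 to 2.66 in Chinese Erhualian and 1.497 to 2.13 in Large White sows. The mean signal (geometric) of 9 hybridization control probe sets was 1648 to 1850 in Chinese Erhualian and 1180 to 1350 in Large White sows, so that these controls separated the breeds without overlap. The part of these differences in the results was not tested, and results are given with and without Chinese Erhualian sow 1.

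All 5 genes gave a normalized signal above 50, the level of the methods' filter, in every sow of both breeds. Signals are on a linear scale, and since each probe set binds its target with its own strength, they are compared between sows and not between genes. ZP2, whose protein is cut after fertilization in the mouse, had signals of 55.0, 55.4 and 112 in Chinese Erhualian sows 1 to 3, against 81.1, 59.2 and 75.8 in Large White sows 1 to 3. The Chinese Erhualian values therefore lay on both sides of all Large White values, and sow 3 was the single array above 100.

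ZP3, a zona glycoprotein to which sperm bind, had signals of 133, 157 and 233 in Chinese Erhualian sows and 181, 112 and 164 in Large White sows. ZP4, which takes part in sperm binding with ZP3 in the pig, had signals of 210, 240 and 299 in Chinese Erhualian sows and 252, 177 and 224 in Large White sows. For both genes Chinese Erhualian sow 3 was the highest array and Large White sow 2 the lowest, with the other 4 sows mixed between them.

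GDF9 had signals of 239, 202 and 268 in Chinese Erhualian sows and 295, 205 and 256 in Large White sows. It was above 200 on all 6 arrays, and its lowest values, Chinese Erhualian sow 2 and Large White sow 2, were nearly equal. BMP15 had signals of 73.7, 80.2 and 89.5 in Chinese Erhualian sows and 90.3, 62.6 and 72.6 in Large White sows. It stayed below 100 on every array, and Large White sows held both its highest and its lowest value.

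**Figure D1:**
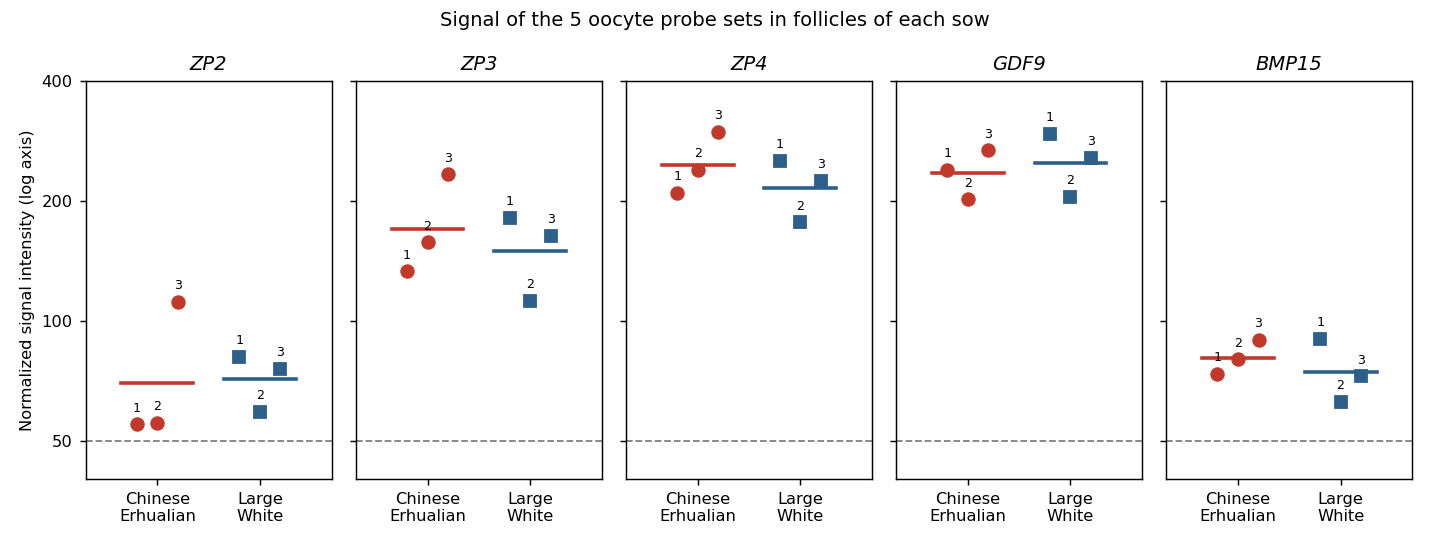
Normalized signal intensity (log axis) of the 5 genes in follicles of 3 Chinese Erhualian sows (circles) and 3 Large White sows (squares), with the sow number over each point, a line at the geometric mean of each breed and a dashed line at a signal of 50. Every point lies above 50, and for each gene the points of the breeds overlap.

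Whether oocyte RNA can be seen in the follicles of each breed was described by counting probe sets above fixed signal levels. By the rule of a signal over 50 in at least 2 of the 3 sows of a breed, 5 of 5 genes were counted in Chinese Erhualian and 5 of 5 in Large White sows, beside 79.1% and 79.1% of all 23935 probe sets. With all 6 arrays required, 5 of 5 genes were counted beside 72.9% of all probe sets. At a level of 100, ZP3, ZP4 and GDF9 were counted in each breed and ZP2 and BMP15 in neither, that is 3 of 5 genes beside 63.6% of all probe sets in Chinese Erhualian and 63.4% in Large White sows. On all 6 arrays, 3 of 5 genes passed 100 beside 56.1% of all probe sets, and GDF9 alone, 1 of 5, passed 200 beside 38.5%. At 100 and 200 the counts were thus close to or below the shares of the whole array, and at 50 most probe sets of the array passed as well. At no level are the counts a result about oocyte genes.

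Genes that mark other tissues, such as pituitary, liver, lung, brain and testis, were used to describe the signal of genes not expected in a follicle. Whether any of them is made in these follicles was not tested. Of 41 probe sets for 33 such genes, 17 (41.5%) were above 50 on all 6 arrays, 12 of these without passing 100 everywhere, and 16 were above 50 on no array. A level of 100 on all 6 arrays was passed by 5 of the 41, those of LHB, AHSG, GFAP, MBP and SFTPC, which are named because their values were seen. The pituitary hormone gene LHB had signals of 358 to 436, the lung surfactant gene SFTPC 281 to 605 and the myelin gene MBP, by its brightest probe set, 410 to 1106. Other probe sets of MBP and GFAP did not pass 100 on all 6 arrays, the dimmest at 17.6 to 29.5 (MBP) and 30.8 to 37.8 (GFAP). Genes of other tissues were thus found at each of the signal levels at which the 5 oocyte genes were counted. All 5 oocyte genes gave a signal above 50 in both breeds, and from the signal levels alone oocyte RNA cannot be told apart from other sources of signal on the array.

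**Figure D2:**
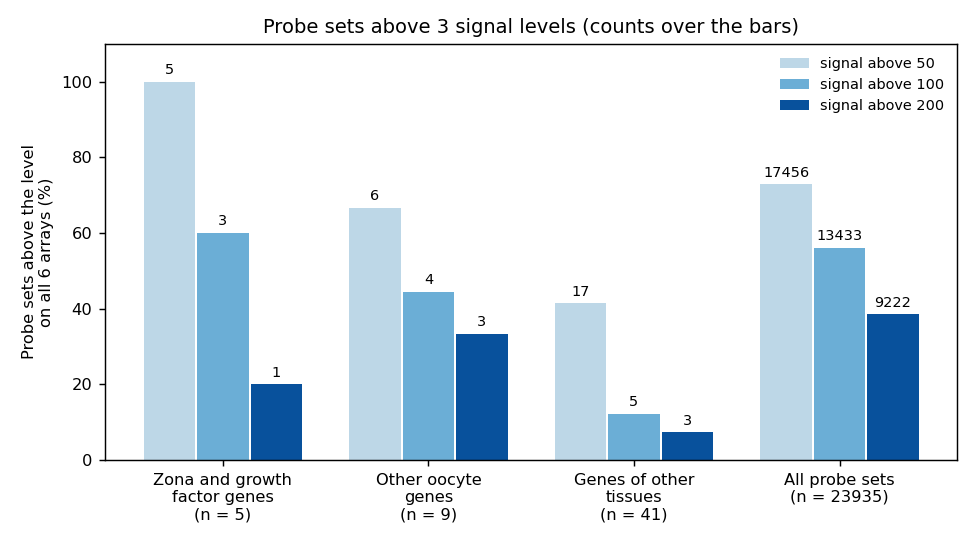
Percent of probe sets (y axis) with a signal above 50, 100 or 200 on all 6 arrays, for the 5 zona and growth factor genes, 9 other oocyte genes, 41 probe sets for genes of other tissues and all 23935 probe sets, with counts over the bars. At a level of 100 the counts were 3 of 5 and 4 of 9, against 5 of 41 probe sets for genes of other tissues and 56.1% of all probe sets. Of the 4, UCHL1, KIT and GJA4 are also made by other cells of the ovary.

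No difference between the breeds was found for any of the 5 genes. In limma, 0 of 5 passed an adjusted p of 0.05 (Benjamini-Hochberg over 19196 probe sets that exceeded 50 in 3 or more of the 6 sows), where 4 of all tested probe sets, 0.0208%, did so. At an unadjusted p of at most 0.05 the count was 0 of 5, beside 3.86% of all tested probe sets. No gene had breeds whose arrays did not overlap, which was the case for 9.10% of all tested probe sets. With 3 sows per breed an exact permutation test cannot give a p below 0.1, and for the 5 genes its 2-sided p was 0.5 to 0.9.

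The intervals show how large a difference in array signal remains possible. The mean signal of ZP4 was 249 ± 45.2 in Chinese Erhualian and 218 ± 38.2 in Large White sows (SD, n = 3 each), a log2 difference of 0.20 (SE 0.22, limma adjusted p = 0.993), with a 95% interval of the ratio from 0.793 to 1.65. ZP3 averaged 175 ± 52.2 in Chinese Erhualian and 152 ± 35.9 in Large White sows, with a log2 difference of 0.18 (SE 0.29) and a ratio interval of 0.705 to 1.83. ZP2 averaged 74.0 ± 32.6 in Chinese Erhualian and 72.0 ± 11.4 in Large White sows, with a log2 difference of −0.03 (SE 0.31) and a ratio interval of 0.578 to 1.66. Differences in signal beyond 2-fold in either direction thus lay outside all of the zona gene intervals. What part of each signal came from oocyte RNA was not tested, so the intervals do not bound a difference in that RNA.

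For the growth factors the intervals were narrower. GDF9 averaged 236 ± 33.0 in Chinese Erhualian and 252 ± 45.2 in Large White sows (SD, n = 3 each), with a log2 difference of −0.09 (SE 0.21) and a ratio interval of 0.663 to 1.34. BMP15 averaged 81.1 ± 7.94 in Chinese Erhualian and 75.1 ± 14.0 in Large White sows, with a log2 difference of 0.12 (SE 0.18) and a ratio interval of 0.800 to 1.48. Without Chinese Erhualian sow 1 the log2 differences were 0.14 for ZP2, 0.36 for ZP3, 0.31 for ZP4, −0.10 for GDF9 and 0.19 for BMP15, and 0 of 5 passed the test. The sign of the small differences depended on single sows: ZP3 was −0.04 without Chinese Erhualian sow 3 and −0.02 without Large White sow 2.

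**Figure D3:**
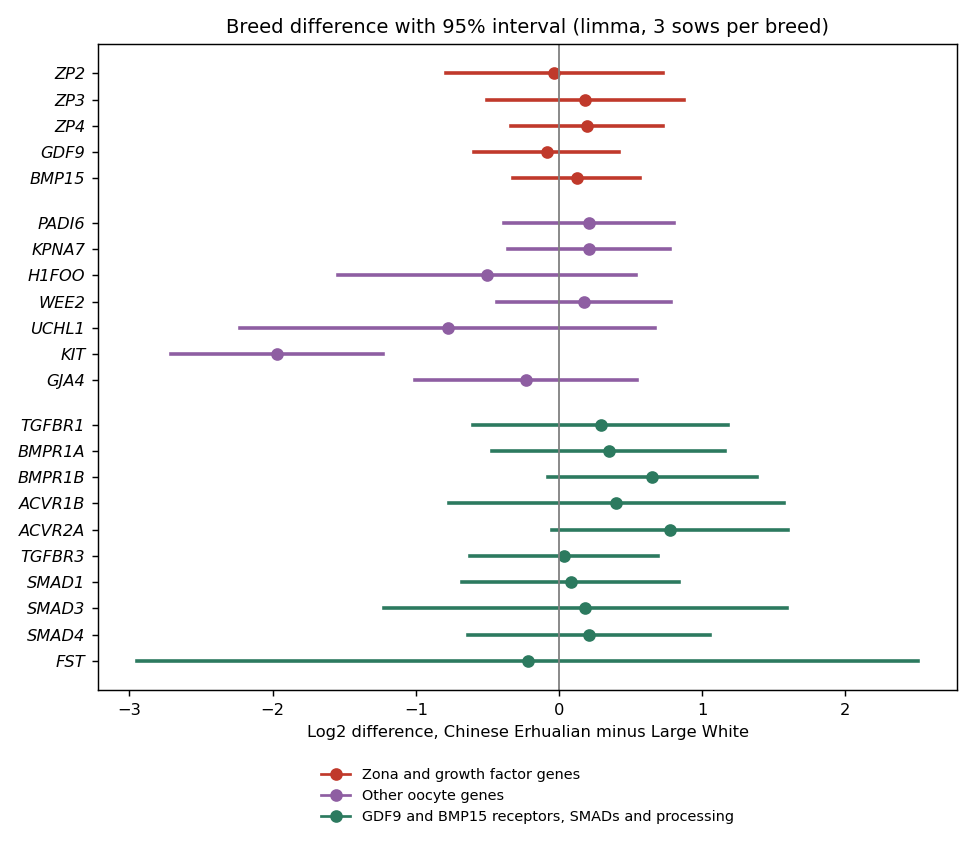
Log2 difference in signal, Chinese Erhualian minus Large White (x axis), with the 95% interval from limma, for the 5 zona and growth factor genes, 7 other oocyte genes and 10 genes for receptors, SMADs and processing. The intervals of the 5 genes all cross 0 and stay between −0.79 and 0.87.

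For each of the 5 genes, the SD over the sows of either breed was larger than the difference between the breed means. The highest array exceeded the lowest by 2.03 times for ZP2, 2.08 times for ZP3, 1.69 times for ZP4, 1.46 times for GDF9 and 1.44 times for BMP15. This spread was ordinary for the array: the SD of log2 signal over the 6 sows lay at percentiles 65.4 (ZP2), 59.8 (ZP3), 39.4 (ZP4), 30.6 (GDF9) and 26.2 (BMP15) among all tested probe sets. The highest sow was Chinese Erhualian 3 for the 3 zona genes and Large White 1 for the growth factors. Large White sow 2 was lowest for ZP3, ZP4 and BMP15, Chinese Erhualian sow 1 for ZP2 and Chinese Erhualian sow 2 for GDF9.

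Set against its own median over the 6 arrays, the middle gene of the 5 stood at −0.14, −0.03 and 0.37 on the log2 scale in Chinese Erhualian sows 1 to 3, and at 0.23, −0.30 and 0.03 in Large White sows 1 to 3. The same measure over all tested probe sets was between −0.01 and 0.01, and over 17 genes of other tissues between −0.09 and 0.14. Normalization holds the first of these near 0, and a median over genes of unlike patterns also lies near 0. Neither therefore shows that the 5 genes varied more than other genes. In Chinese Erhualian sow 1 the granulosa cell genes stood at −1.44, the genes listed as cumulus cell targets of GDF9 at −1.98 and the theca and stroma genes at −0.90. Of the 8 theca and stroma genes, 5 were lowest in that sow, while DES was highest. The median of the 5 genes was −0.14 there. Among them ZP2 was at −0.29, its lowest array, ZP3 at −0.27, ZP4 at −0.14, GDF9 at −0.05 and BMP15 at −0.06, and the median of 7 other oocyte genes was −0.38, with 3 of the 7 lowest in that sow. Large White sow 2, in which 3 of the 5 genes were lowest, had leukocyte markers at 0.68, and the part of these cells was not tested.

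**Figure D4:**
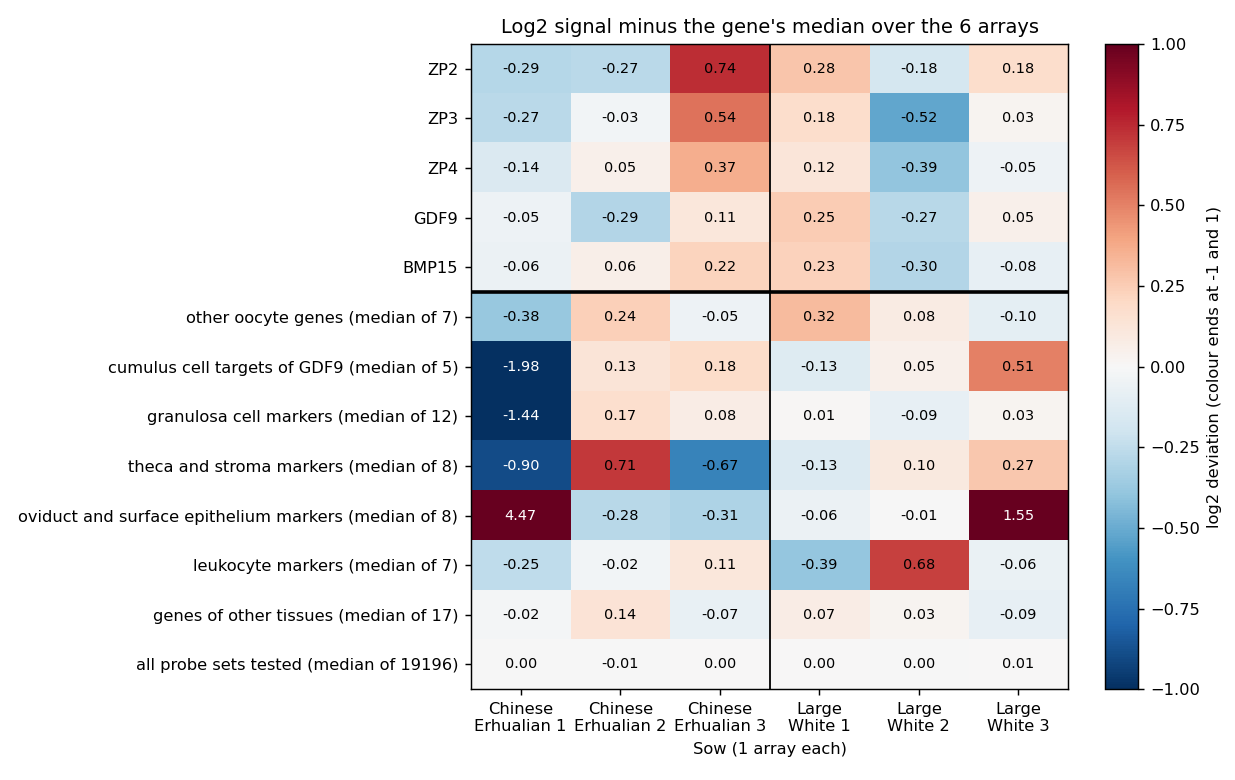
Log2 signal minus the gene's own median over the 6 arrays, for each of the 5 genes (upper rows) and as the median of each gene list (lower rows), in 3 Chinese Erhualian and 3 Large White sows, with colour ending at −1 and 1. Chinese Erhualian 3 and Large White 1 are above 0 for all 5 genes and Large White 2 is below 0 for all 5, while granulosa cell markers are at −1.44 in Chinese Erhualian 1.

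The 5 genes varied together from sow to sow. Over the 6 arrays the Pearson correlation of log2 signal in the 10 gene pairs was 0.61 to 0.98, with a median of 0.75, and Spearman's rho was 0.49 to 0.94. ZP3 and ZP4 were closest at r = 0.98, and ZP4 and GDF9 were farthest apart at r = 0.61. Without Chinese Erhualian sow 1 the median was 0.78, and the lowest value on leaving out any sow was 0.37, for ZP4 and GDF9 without Large White sow 2. These are descriptions over 6 points that share the same arrays and normalization.

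A search among 6321 other genes for the patterns most like each member gave, with the brightest probe set per gene, PABPC1 (r = 0.997), DBP (0.987) and TCHP (0.973) for ZP2. For ZP3 the closest were SLC39A14 (0.982), ZP4 (0.982) and CREB1 (0.934), and for ZP4 they were SLC39A14 (0.995), ZP3 (0.982) and LHX3 (0.962). GDF9 was followed by FBXO31 (0.984), DCAF11 (0.954) and SF3A3 (0.951), and BMP15 by LHX3 (0.984), BCL2L1 (0.969) and T (0.967). Between 11 and 25 genes per member reached r = 0.9, so that closeness to a pattern over 6 arrays does not set the oocyte genes apart. PABPC1, a poly(A) binding protein gene of all cells, and LHX3, a pituitary transcription factor gene, are not known as oocyte genes. LHX3 had signals of 113, 122 and 129 in Chinese Erhualian sows and 127, 101 and 115 in Large White sows, which follow ZP4 and BMP15 over a smaller range.

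Among 39 further gene symbols known from oocytes, 9 had a probe set with 1 symbol, 6 of them above 50 on all 6 arrays, and 7 were tested, with 0 adjusted calls. PADI6, a component of the oocyte's cytoplasmic lattices, followed the 5 genes most closely of this list, with a median r of 0.86, a value reached by 17 of 6317 genes (0.269%), PADI6 included. Its signals were 47.5, 62.9 and 70.6 in Chinese Erhualian sows and 68.1, 42.1 and 47.5 in Large White sows, close to 50 throughout. KPNA7, an importin of oocytes and early embryos, had 154, 189 and 156 in Chinese Erhualian sows and 187, 109 and 145 in Large White sows, with a median r of 0.58. The rest of the list had a median r of −0.59 (H1FOO), −0.08 (WEE2), −0.04 (KIT), 0.08 (UCHL1) and 0.20 (GJA4). Over the 7 genes the median r was 0.08, so that the list as a whole did not follow the 5 genes. GFAP, among the genes of other tissues, had a median r of 0.70, above that of KPNA7.

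H1FOO, the oocyte linker histone gene, had signals of 54.6, 84.4 and 68.5 in Chinese Erhualian sows and 73.3, 189 and 64.7 in Large White sows. WEE2, a kinase gene that holds the oocyte in meiotic arrest, had 163, 102 and 95.8 in Chinese Erhualian sows and 124, 92.8 and 96.3 in Large White sows. For both genes 1 sow stood above the others, in a different breed each time. The germ cell genes DDX4 and POU5F1 were below 50 on all 6 arrays, at 13.6 to 22.4 and 29.4 to 39.5.

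The brightest genes of this list are also made by other cells of the ovary. UCHL1, a ubiquitin hydrolase gene, had 1000, 5474 and 2570 in Chinese Erhualian sows and 5183, 4374 and 3132 in Large White sows. GJA4, the connexin of the gap junctions between oocyte and granulosa cells and also of endothelium, had 299, 663 and 555 in Chinese Erhualian sows and 567, 593 and 530 in Large White sows. Both were lowest in Chinese Erhualian sow 1, unlike ZP3, ZP4, GDF9 and BMP15. KIT, the receptor for granulosa-derived KIT ligand, which theca cells also carry, had 376, 341 and 580 in Chinese Erhualian sows and 1541, 1303 and 2235 in Large White sows, a log2 difference of −1.97 (SE 0.31, limma adjusted p = 0.479). Its breeds did not overlap, and it was the 1 gene of the list with an unadjusted p of at most 0.05.

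Receptors and signal carriers of GDF9 and BMP15 were covered by 10 of 20 listed genes, and BMPR2 was not analysed here. By the brightest probe set of each gene, 0 of 10 passed the adjusted test and 0 of 10 had an unadjusted p of at most 0.05, a count that rests on the choice of probe set, since both other probe sets of BMPR1B had a smaller p (0.0015 and 0.0048 in limma, unadjusted). Their median log2 difference was 0.25, against 0.00 over all tested probe sets. TGFBR1, the type I receptor of GDF9, had signals of 740, 488 and 814 in Chinese Erhualian sows and 350, 817 and 562 in Large White sows. ACVR2A, an activin type II receptor, had 149, 82.6 and 178 in Chinese Erhualian sows and 62.0, 68.9 and 103 in Large White sows, with a log2 difference of 0.78 (SE 0.34). BMPR1A and ACVR1B, type I receptors of the family, differed by 0.35 (SE 0.34) and 0.40 (SE 0.48).

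The type I receptor of BMP15, BMPR1B, has 3 probe sets, and they did not agree in whether the breeds overlapped. The brightest had 1217, 1123 and 903 in Chinese Erhualian sows and 521, 600 and 1020 in Large White sows, a log2 difference of 0.65 (SE 0.30). Another had 608, 578 and 520 in Chinese Erhualian sows and 178, 210 and 310 in Large White sows, a difference of 1.32 (SE 0.25, limma adjusted p = 0.653), and the third had 143, 140 and 159 in Chinese Erhualian sows and 42.6, 57.2 and 94.9 in Large White sows, a difference of 1.26 (SE 0.30). For the other two probe sets every Chinese Erhualian sow was above every Large White sow, and none of the 3 passed the adjusted test. The ligand BMP15 had overlapping breeds in the same samples, with a difference of 0.12 (SE 0.18).

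Genes listed as cumulus cell targets of GDF9 were covered by 6 of 12 symbols, of which 5 were tested and 0 passed the adjusted test or an unadjusted p of at most 0.05. Whether GDF9 acts on these genes in the follicles, and which cells make them there, was not tested. PTX3, a protein of the expanded cumulus matrix, had signals of 65.6, 5264 and 5784 in Chinese Erhualian sows and 2573, 4418 and 6844 in Large White sows. VCAN, the matrix proteoglycan versican, had 172, 2140 and 2374 in Chinese Erhualian sows and 1919, 2174 and 2050 in Large White sows. Both were low in Chinese Erhualian sow 1 alone, in which GDF9 had a signal of 239 and BMP15 one of 73.7. TNFAIP6, which links the hyaluronan of the matrix, was high in a single animal, at 36.4, 744 and 52.0 in Chinese Erhualian sows and 58.6, 66.0 and 25.4 in Large White sows. PTGS2, the prostaglandin synthase of ovulation, had 14.8, 15.0 and 1166 in Chinese Erhualian sows and 22.7, 150 and 603 in Large White sows, so that each breed held animals below 50 and animals above 500. The median r of the cumulus genes with the 5 oocyte genes was 0.26, and that of 12 granulosa cell genes 0.30, against −0.08 over 6317 genes.

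Lists of other cells gave 0 adjusted calls between breeds as well: 0 of 12 granulosa, 0 of 8 theca and stroma, 0 of 8 epithelium, 0 of 7 leukocyte, 0 of 3 red blood cell, 0 of 7 endothelial and 0 of 17 genes of other tissues. At an unadjusted p of at most 0.05, 2 of the 3 red blood cell genes, ALAS2 and AHSP, were higher in Chinese Erhualian sows. No gene of the other lists in this paragraph reached that level, beside 3.86% of all tested probe sets. HBB did not reach it (limma unadjusted p = 0.12), and AHSP was dim, at 30.1 to 153. The red blood cell genes had a median r of 0.01 with the 5 oocyte genes, leukocyte markers −0.48, epithelium markers −0.32, endothelial markers −0.21 and theca and stroma markers −0.03. For the 17 genes of other tissues it was −0.18, with single genes from −0.54 to 0.70.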

How the data were processed

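The authors made the deposited intensity values from the scanned porcine arrays with MAS5 (version 2.3.1 in the submitters' processing notes), brought the arrays to the same target intensity and normalized them with dChip's invariant set method. The intensity is linear, with 1 value per probe set and array. The number of arrays limits the precision. Arrays were grouped by the breed in the labels, each a separate animal. Present calls were not used here.

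After removal of 188 controls from 24123 probe sets, log2 was taken of each signal, with 1 as the smallest value allowed, and the 19196 probe sets with a signal above 50 on 3 or more arrays were fitted for breed in limma 3.58.1 (R 4.3.3) with a variance trend, 2-sided, adjusted by Benjamini-Hochberg over all of them. Exact permutation tests used scipy 1.17.1 (Python 3.11.15, pandas 2.3.3, numpy 2.4.6), and figures matplotlib 3.10.9. The fit was tested on simulated data.

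Symbols came from the array's probe table (10069 probe sets with 1 symbol, 198 with several, 13668 with none). The transcript accessions of all 5 members matched their genes in a RefSeq table. The brightest probe set stood for a gene in a list. Named were all members, the 4 genes with the smallest p in each list of oocyte biology (for other oocyte genes also the 6 brightest), and the 3 genes most like each member by Pearson r. PADI6, DDX4, POU5F1 and TGFBR1 were added after values were seen, and lists of other cell types are given by counts. The members, lists and tests were chosen with earlier results of these data known. Lists cover other oocyte genes, GDF9 and BMP15 receptors, SMADs and processing, cumulus targets, granulosa, theca and stroma, epithelium, leukocyte, red blood cell and endothelial markers, and genes of other tissues. Alternatives were other normalizations, filters and floors, a constant prior variance, array weights, a replicate block, the methods' t-test, which gave the same calls for the members, and each array left out in turn.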

Additional observations from a re-analysis of the deposited data

How the results depend on the processing

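No alternative gave a call for any of the 5 genes: over 73 values under 15 settings the adjusted p was at least 0.733, and the lowest unadjusted p was 0.0990 (ZP4 with array weights). The direction was the same in 62 and opposite in 11. With array weights the log2 difference was 0.30 for ZP2 and 0.10 for GDF9. Leaving out each sow in turn gave −0.37 to 0.14 for ZP2, −0.045 to 0.36 for ZP3, −0.23 to 0.036 for GDF9 and −0.00091 to 0.26 for BMP15, so that these signs rest on single sows, while ZP4 stayed at 0.05 to 0.31. At a detection level of 100 in place of 50, 3 genes were counted in Chinese Erhualian and 3 in Large White sows, against 5 and 5. ZP2 and BMP15 were not tested with the filter level at 100. Over all probe sets, 11 passed an adjusted p of 0.05 with array weights, 2 to 4 with a sow left out, and 0 with the replicate block or the methods' t-test, against 4. The adjustment was added to that t-test here, while the methods describe a p cutoff of 0.05 without one. The 0 is therefore not the count of the paper's own test.

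The labels number the sows of both breeds 1 to 3. Deviations of sows with the same number correlated at −0.17, −0.14 and 0.27, within the −0.48 to 0.51 of sows with unlike numbers. Whether arrays of the same number were processed together cannot be told from these values. The replicate block gave 0 calls among the 5 genes, with ZP2 at −0.03 and ZP4 at 0.20. The signals of ZP2 and BMP15 were near 50, the level of the filter, which limits what can be said of them.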
